A study of Homo sapiens with 24 samples.

Results

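The transcriptional response of SIRT1 knockdown LNCaP prostate cancer cells to dihydrotestosterone (DHT, the most potent natural androgen) was measured by RNA sequencing. The 3 libraries of SIRT1 knockdown 10 given 1 nM DHT were set against the 3 libraries of the same knockdown given vehicle, 6 of the 24 libraries of the series. All genes expressed highly enough to be tested were described, 14558 of the 23207 gene symbols in the files. LNCaP is a hormone-sensitive prostate cancer line, and SIRT1 is an NAD-dependent deacetylase. Cells of each group used here carried a lentiviral short hairpin RNA (against SIRT1 in knockdown 10, non-targeting in the NTC cells), delivered at a multiplicity of infection of 10, and were under puromycin, at 1 µg/ml for selection and 0.5 µg/ml for maintenance. Fetal bovine serum was used for 48 h, then charcoal-stripped serum, which is depleted of steroid hormones, for 24 h before and 24 h during treatment. Knockdown 10 and NTC cells each had 3 libraries with 1 nM DHT, 3 with 1 nM DHT and 10 µM enzalutamide, an androgen receptor antagonist, and 3 with vehicle. The labels call the knockdown cells stable clones and do not say whether knockdown 10 is the same hairpin or clone as the shSIRT1 cells that were grown in fetal bovine serum in the rest of the series. With only 1 knockdown line in stripped serum, loss of SIRT1 and the history of that line cannot be told apart. The labels do not state that the libraries of a group came from separate cultures. The p-values therefore measure only the spread between libraries of a group, estimated over all 18 libraries in stripped serum.

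The androgen receptor is a steroid hormone receptor that moves to the nucleus when it binds DHT and binds DNA at androgen response elements, which are paired hexamers related to AGAACA. In prostate epithelium it drives the secretory program, which includes the kallikrein proteases, and in prostate cancer cells also lipid synthesis and the cell cycle. SIRT1 removes acetyl groups from the androgen receptor, histones, p53 and FOXO proteins, and has been described as a repressor of androgen receptor activity.

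Total counts per library were 25.2 to 28.1 M for DHT and 30.1 to 32.9 M for vehicle in knockdown cells. The targeted gene was low in the knockdown line in both treatments: SIRT1 had 13.1, 16.0 and 17.8 CPM (counts scaled to library size) with DHT and 17.6, 21.4 and 19.4 CPM with vehicle, while NTC cells averaged 49.2 CPM with DHT and 57.0 CPM with vehicle. The log2 change of SIRT1 with DHT was -0.31 in knockdown cells (SE 0.0982, adjusted p = 0.0289), a call lost without DHT library 1 (adjusted p = 0.119), vehicle library 2 (0.118) or vehicle library 3 (0.0527), and the libraries overlapped. DHT library 2 stood apart from the other DHT libraries. Its chi-square per gene was 38.6 against DHT library 1 and 22.4 against DHT library 3, while libraries 1 and 3 differed by 12.5. The androgen-induced, G1/S and G2/M lists described below each had their lowest summed DHT level in it. Only some markers of other cells were at 0 in all 6 libraries. Of basal cells and other prostate lines these were 3 of 16, KRT17 and CAV1 among them. Of fibroblasts they were 2 of 13, COL1A2 and THY1. Of leukocytes and endothelium they were 6 of 17, with PTPRC, CD3E, MS4A1, CD14 and HBB among them. Other members were expressed. The highest was ITGA6 on the basal list, where it made up most of the summed level, COL1A1 on the fibroblast list and CD68 on the leukocyte and endothelium list. The summed level of the basal list (16 genes, 6 tested) was 47.3 to 52.1 CPM with DHT and 42.7 to 53.2 CPM with vehicle. The fibroblast list (13 genes, 5 tested) summed to 30.5 to 43.3 CPM with DHT and 32.7 to 42.2 CPM with vehicle, and the leukocyte and endothelium list (17 genes, 5 tested) to 14.1 to 18.6 CPM with DHT and 12.1 to 13.8 CPM with vehicle. Of these lists CD68 (log2 change 0.39, adjusted p = 0.0192), VWF (0.50, adjusted p = 0.0393) and COL3A1 (0.44, adjusted p = 0.0093) were called higher with DHT, and their part in the results was not tested. Without vehicle library 2 these calls were lost (adjusted p = 0.107, 0.176 and 0.0607), without DHT library 2 those of CD68 (0.0915) and VWF (0.156), and that of VWF also without DHT library 1 (0.0916) or vehicle library 3 (0.161). In such bulk libraries, fewer cells in a given state and less RNA per cell cannot be told apart.

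DHT changed the level of 3236 of the 14558 tested genes in knockdown cells at an adjusted p under 0.05 (22.2%), by edgeR's quasi-likelihood test with Benjamini-Hochberg adjustment, which gives every adjusted p below. Of these, 1937 rose (13.3%) and 1299 fell (8.92%). Scaling by the upper quartile instead of the trimmed mean of M-values (TMM) turned this split round, with 1616 genes higher and 1710 lower, since it moved the median log2 change over all genes to -0.025 from 0.0077. Most changes were small: 88.8% of the called genes moved by less than 2-fold. The large changes lay on the high side, with 284 genes called and at least 2-fold higher (1.95%) and 80 at least 2-fold lower (0.55%). Of the 284, 30 were androgen-induced genes and 109 belonged to the lists of cell cycle and DNA repair genes. The number of genes that rose depended on single libraries, and was 1228 without DHT library 1 and 1269 without vehicle library 3.

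**Figure D1:**
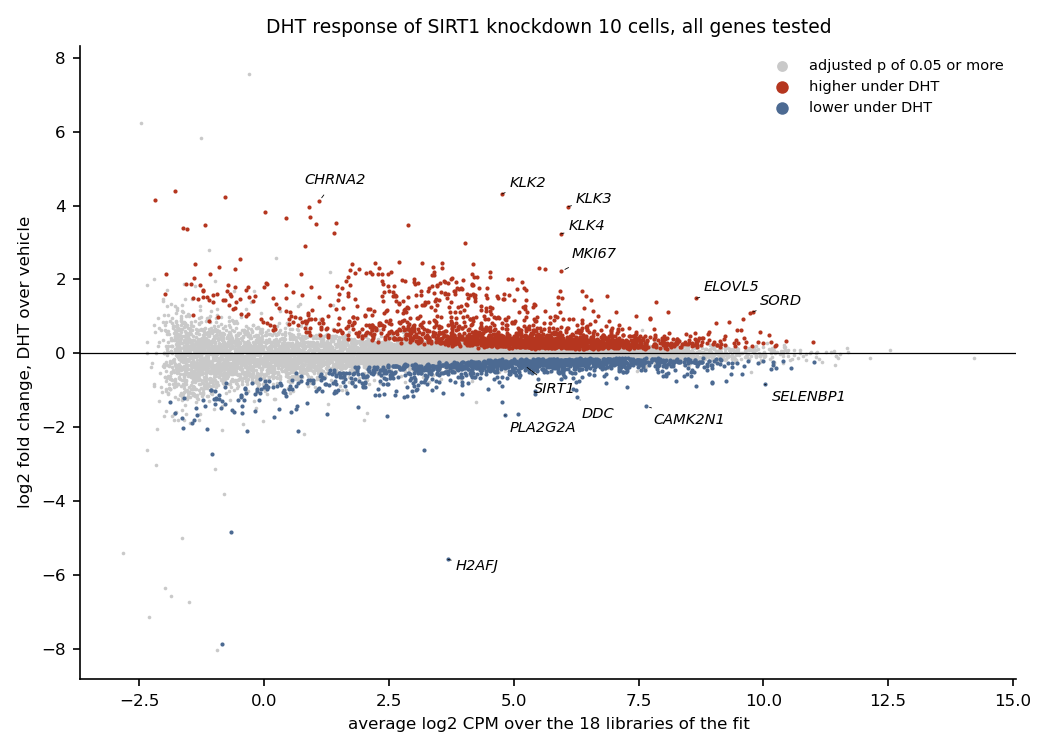
Change with DHT in SIRT1 knockdown 10 cells (y axis, log2 fold change of DHT against vehicle) against average level (x axis, log2 CPM over the 18 stripped-serum libraries) for the 14558 tested genes, coloured by whether the gene was called higher, lower or neither. More called genes lie at least 2-fold above 0 (284) than below it (80), KLK2, KLK3 and KLK4 among them, and the lowest points on the left are genes with few counts.

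The kallikreins KLK3, KLK2 and KLK4 rose strongly with DHT. KLK3, which encodes prostate-specific antigen, and KLK2, which encodes the protease that activates it, are neighbours on chromosome 19. The 250 bases before their RefSeq starts (build GRCh38.p14) are shown because both are textbook androgen-responsive promoters and because these genes had the largest folds of the kallikreins. Capitals mark the hexamer AGAACA, searched on both strands.
KLK3 (chr19:50854665-50854914, plus strand): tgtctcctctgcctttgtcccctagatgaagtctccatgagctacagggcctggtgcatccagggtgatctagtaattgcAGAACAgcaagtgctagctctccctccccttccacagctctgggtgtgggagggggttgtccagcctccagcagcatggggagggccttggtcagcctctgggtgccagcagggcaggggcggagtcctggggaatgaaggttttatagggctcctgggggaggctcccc
KLK2 (chr19:50873189-50873438, plus strand): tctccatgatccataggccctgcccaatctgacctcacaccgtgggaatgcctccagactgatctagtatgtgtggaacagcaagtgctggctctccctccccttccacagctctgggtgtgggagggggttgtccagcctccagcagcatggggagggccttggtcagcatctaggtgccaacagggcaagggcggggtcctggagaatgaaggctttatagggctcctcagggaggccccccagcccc
The KLK3 window held 1 AGAACA, 170 to 165 bases before the start, and the KLK2 window held none, which says only that these letters are not in it. The windows share an unbroken run of 80 bases. AGAACA was found in 12.4% of the 27305 promoters of that table, in 7.66% of the matched promoters of tested genes and in 2 of the 57 matched promoters of the androgen-induced genes described below (3.51%). Only 75% of that list and 76.4% of all tested genes had a promoter in the table, under the 80% set as a minimum, so the comparison of these shares is void.

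KLK3 had 111, 82.2 and 85.6 CPM with DHT and 6.46, 4.83 and 6.43 CPM with vehicle. Every DHT library lay above every vehicle library, and the fitted rise was 15.7-fold (log2 change 3.97, SE 0.165, adjusted p = 4.58e-11). KLK2 had 62.2, 41.8 and 43.5 CPM with DHT and 2.33, 2.10 and 3.0 CPM with vehicle, a rise of 19.8-fold (log2 change 4.31, SE 0.221, adjusted p = 8.58e-10) and the highest log2 change among the genes ranked for naming. KLK4, a secreted trypsin-like protease, had 188, 127 and 157 CPM with DHT and 16.7, 15.8 and 17.7 CPM with vehicle. Its rise was 9.39-fold (log2 change 3.23, SE 0.111, adjusted p = 3.71e-12). Per transcript length, KLK4 was more abundant than KLK2, at a mean of 224 TPM (scaled by transcript length and library size) with DHT against 24.0 TPM with vehicle, and KLK2 had 29.8 TPM with DHT and 1.52 TPM with vehicle. The low-level members KLKP1 and KLK15 rose too: the pseudogene KLKP1 had a log2 change of 3.26 (adjusted p = 3.36e-07) and KLK15 one of 2.28 (adjusted p = 3.63e-05). KLK1 and KLK5 to KLK14 had too few counts to be tested.

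Of the 76 tested genes on a list of androgen-induced genes, 49 rose (64.5%, beside 13.3% of all tested genes) and 3 fell, with a median log2 change of 0.78 beside 0.0077 over all tested genes. The lists here and below were chosen with earlier results of these data known, so their shares describe the lists and test nothing. The summed level of the list was 11943, 9515 and 10343 CPM with DHT and 7437, 6808 and 7069.6 CPM with vehicle, with no overlap and with DHT library 2 the lowest of its group. SLC45A3, a prostate membrane transporter known as prostein, had 105, 78.2 and 82.0 CPM with DHT and 31.6, 29.0 and 33.0 CPM with vehicle (log2 change 1.5, SE 0.107, adjusted p = 5.35e-08). TMPRSS2, the membrane protease whose promoter is fused to ETS genes in many prostate tumours, had 79.9, 57.0 and 63.4 CPM with DHT and 35.7, 32.3 and 33.0 CPM with vehicle (log2 change 0.98, SE 0.127, adjusted p = 2.17e-05). FKBP5, an immunophilin co-chaperone of steroid receptors, had 79.5, 48.8 and 58.3 CPM with DHT and 34.8, 31.8 and 32.8 CPM with vehicle (log2 change 0.91, SE 0.118, adjusted p = 2.32e-05). In these 3 genes the groups did not overlap and DHT library 2 was the lowest of the DHT libraries.

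Some androgen-induced genes were near 0 with vehicle. CHRNA2, a nicotinic acetylcholine receptor subunit, had 6.73, 3.37 and 4.65 CPM with DHT and 0.264 to 0.296 CPM with vehicle (log2 change 4.12, adjusted p = 1.57e-07). TRPM8, the cold-activated cation channel, had 5.72, 2.72 and 5.64 CPM with DHT and 0.214 to 0.462 CPM with vehicle (log2 change 3.95, adjusted p = 3.76e-07). PGC, which encodes progastricsin, had a log2 change of 3.66 (adjusted p = 1.86e-06). ORM1, an acute-phase plasma protein gene, had a log2 change of 3.39 (adjusted p = 0.00102), and coagulation factor F5 one of 2.17 (adjusted p = 3.23e-07). Others moved from a high level, so that they added many more transcripts. SORD, which converts sorbitol to fructose, was one of the 6 genes with the largest gain in mean CPM, with 1492, 1199 and 1283 CPM with DHT and 662, 564 and 603 CPM with vehicle (log2 change 1.12, adjusted p = 9.72e-08). ABHD2, a lipid hydrolase, had 1402, 1213 and 1307 CPM with DHT and 708, 678 and 679 CPM with vehicle (log2 change 0.93, adjusted p = 5.35e-08). ALDH1A3, which makes retinoic acid, had 75.1 to 78.1 CPM with DHT and 37.4 to 38.4 CPM with vehicle (log2 change 1.00, SE 0.0698, adjusted p = 4.62e-08). KCNN2, a calcium-activated potassium channel, rose by 1.78 on the log2 scale (adjusted p = 2.96e-09), C1orf116 by 1.02 (adjusted p = 1.08e-06), the kinetochore gene CENPN by 0.99 (adjusted p = 0.000167), UAP1 of the hexosamine pathway by 0.63 (adjusted p = 0.00393) and PMEPA1, an inhibitor of TGF-beta signalling, by 0.74 (adjusted p = 0.000161).

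Not every gene of that list rose. The prostatic acid phosphatase gene ACPP had 71.6, 61.7 and 63.3 CPM with DHT and 88.2, 66.4 and 69.8 CPM with vehicle and did not pass (adjusted p = 0.313). ERRFI1, a feedback inhibitor of EGFR, and the prostaglandin receptor gene PTGER4 did not pass either (adjusted p = 0.634 and 0.247), nor did NDRG1, a stress-responsive gene, at a log2 change of 0.16 (adjusted p = 0.338). PLA2G2A, a secreted phospholipase, fell: it had 12.3, 11.1 and 12.1 CPM with DHT and 41.2, 30.1 and 41.9 CPM with vehicle (log2 change -1.67, SE 0.138, adjusted p = 2.28e-07). The other members that fell were ZNF827 (log2 change -0.34, adjusted p = 0.00227) and the cytokine receptor gene LIFR (-0.23, adjusted p = 0.0484), named after their values were seen. The LIFR call was lost without DHT library 1 (adjusted p = 0.118), DHT library 2 (0.116), vehicle library 2 (0.0917) or vehicle library 3 (0.108).

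**Figure D2:**
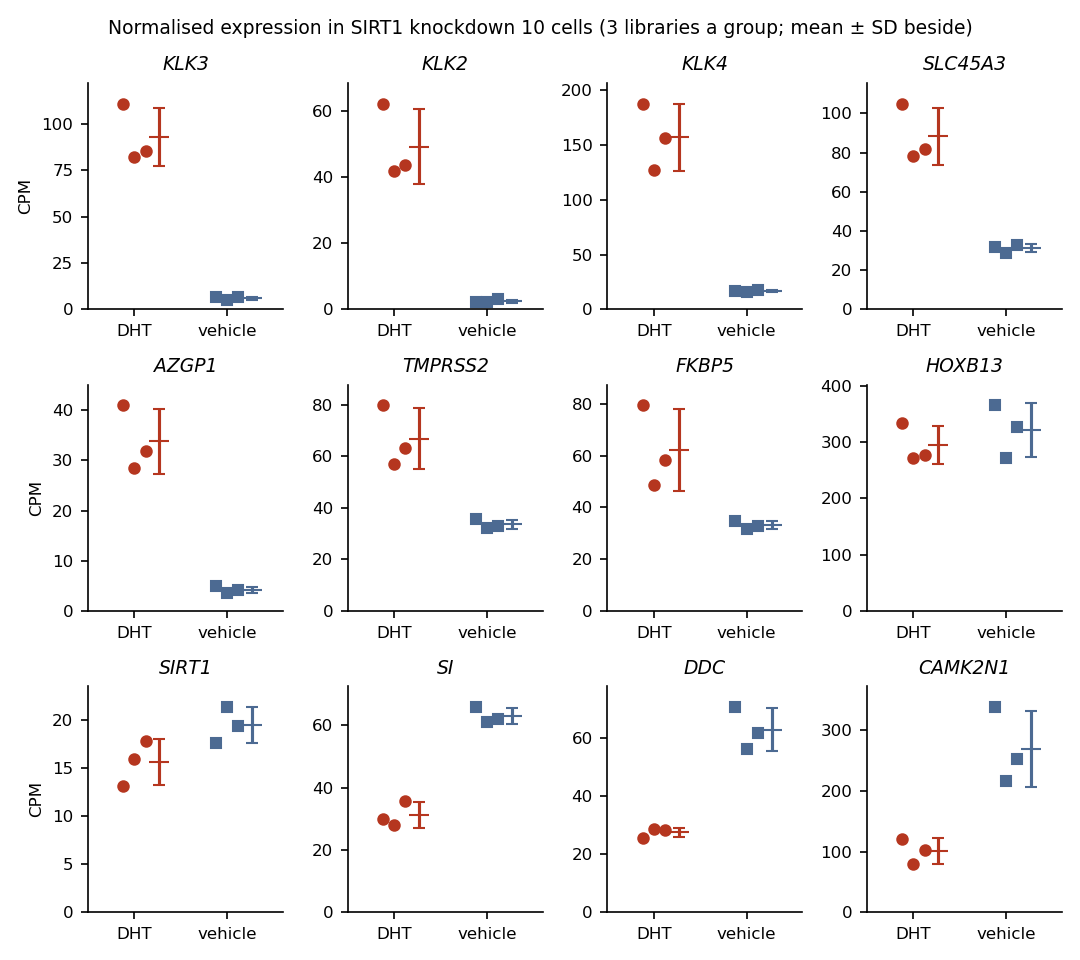
CPM per library (y axis, linear from 0) of 12 genes in SIRT1 knockdown 10 cells, DHT left and vehicle right, each point 1 library, with the mean and SD of 3 beside the points. The libraries do not overlap for KLK3, KLK2, KLK4, SLC45A3, AZGP1, TMPRSS2 and FKBP5, all higher with DHT, nor for SI, DDC and CAMK2N1, all lower, while those of HOXB13 and SIRT1 do.

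In the list of receptor and lineage factors, 4 of 27 rose (14.8%) and 1 fell (3.7%), with a median log2 change of 0.032, beside 13.3% and 8.92% of all tested genes. The pioneer factor FOXA1 (log2 change -0.092, adjusted p = 0.169) and the prostate homeobox factor HOXB13 (-0.13, adjusted p = 0.415) did not pass. FOXA1 passed as lower with upper-quartile scaling (adjusted p = 0.0464) and with DESeq2 (0.0447). HOXB13 had 334, 272 and 278 CPM with DHT and 366, 272 and 327 CPM with vehicle, with overlap. ZBTB16, a zinc finger repressor known as PLZF, rose by 0.98 (adjusted p = 0.000248) and CREB3L4 by 0.43 (adjusted p = 0.00322), whereas the GATA family repressor TRPS1 fell to 58.0, 60.1 and 63.2 CPM with DHT, against 79.0, 80.2 and 83.3 CPM with vehicle (log2 change -0.42, adjusted p = 3.1e-05).

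Among 52 tested transcriptional cofactors, 9 rose (17.3%) and 7 fell (13.5%), with a median of 0.070, so that the share that rose was near the 13.3% of all tested genes, with 8.92% of all genes lower. The count that rose was 15 without DHT library 2, and 4 without DHT library 1 or without vehicle library 3, and the count that fell was 4 without DHT library 1 or vehicle library 2. The p160 coactivators NCOA2 (log2 change -0.26, adjusted p = 0.0092) and NCOA3 (-0.28, adjusted p = 0.00212) fell, as did NCOA7 (-0.26, adjusted p = 0.00293). The kinase gene MAK, itself known as androgen-responsive, rose by 1.16 (adjusted p = 0.000856), and the nuclear transport GTPase gene RAN by 0.31 (adjusted p = 0.000174). Among 24 targets of the glucocorticoid receptor, which binds the same hexamers, 4 rose (16.7%) and 1 fell (4.17%). SGK1 (log2 change -0.080, adjusted p = 0.797), TSC22D3 (-0.033, adjusted p = 0.873) and the clock gene PER1 (0.011, adjusted p = 0.945) did not pass.

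Of 43 tested genes on a list of androgen-repressed genes, 15 fell (34.9%) and 2 rose (4.65%), with a median log2 change of -0.18. Of all tested genes 8.92% fell and 13.3% rose. DDC, which encodes dopa decarboxylase, had 25.7, 28.7 and 28.3 CPM with DHT and 70.8, 56.1 and 61.6 CPM with vehicle (log2 change -1.19, SE 0.0890, adjusted p = 8.54e-08). SI, the sucrase-isomaltase gene, had 29.9, 28.0 and 35.8 CPM with DHT and 66.0, 60.9 and 62.0 CPM with vehicle (log2 change -1.01, SE 0.105, adjusted p = 2.13e-06). CAMK2N1, an inhibitor of calmodulin-dependent kinase II, had 121, 79.6 and 102 CPM with DHT and 338, 216 and 252 CPM with vehicle (log2 change -1.42, SE 0.173, adjusted p = 1.23e-05). In all 3 genes every DHT library lay below every vehicle library. BCHE (butyrylcholinesterase) fell by 0.48 (adjusted p = 0.000439) and FUT8 (the core fucosyltransferase) by 0.45 (adjusted p = 1.52e-06). The 2 members that rose were UGT2B28 (log2 change 1.11, adjusted p = 3.74e-06) and PLA1A, a phospholipase named after its values were seen (1.62, adjusted p = 0.00413). UGT2B15, a glucuronosyltransferase that inactivates DHT, had a log2 change of -0.39 (adjusted p = 0.025), a call lost without DHT library 1 (adjusted p = 0.0696), DHT library 3 (0.0586), vehicle library 1 (0.0732) or vehicle library 3 (0.0527). Genes of the UGT2B family are near-identical in sequence, so the division of reads among them is uncertain.

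Genes outside that list were also among the 12 lowest log2 changes of the ranked genes. MATN2, an extracellular matrix protein, had 1.05, 2.82 and 1.84 CPM with DHT and 6.24, 5.85 and 6.37 CPM with vehicle (log2 change -1.68, adjusted p = 4.21e-05). COL5A1 (-1.63, adjusted p = 0.00917), the lectin gene REG4 (-1.46, adjusted p = 0.000211), MYOZ1 (-1.17, adjusted p = 2e-05) and the insulin receptor substrate gene IRS1 (-1.14, adjusted p = 0.00919) also fell. H2AFJ had 0 counts over the 3 DHT libraries and 18 over the 3 vehicle libraries, at least 5.22-fold lower against a floor of 3 counts over the group. It was expressed in NTC cells, with 2505 counts with DHT and 2282 with vehicle, and RSEM divides its reads with near-identical histone genes. FAM65B had 4 counts with DHT and 30 with vehicle. Both calls were lost when single libraries were left out: H2AFJ without DHT library 1 (adjusted p = 0.059), DHT library 3 (0.0553) or vehicle library 3 (0.0945), and FAM65B without DHT library 1 (0.114), DHT library 2 (0.0791), vehicle library 1 (0.101) or vehicle library 3 (0.0853). Abundant genes that fell included SELENBP1, a selenium-binding methanethiol oxidase, which had 693, 854 and 601 CPM with DHT and 1341, 1209.6 and 1283 CPM with vehicle (log2 change -0.84, adjusted p = 7.63e-06). The kinesin heavy chain gene KIF5B fell by 0.57 (adjusted p = 4.08e-05) and cytoplasmic actin ACTG1 by 0.40 (adjusted p = 0.000329). FOLH1, which encodes prostate-specific membrane antigen, had a log2 change of -0.22 (adjusted p = 0.013), a call lost without vehicle library 1 (0.0574).

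Of 25 tested enzymes of androgen and steroid handling, 4 rose (16%) and 2 fell (8%), near the 13.3% and 8.92% of all tested genes. The count that fell was 5 without DHT library 2 and 1 without DHT library 1, DHT library 3 or vehicle library 3. CYP11A1, the mitochondrial enzyme that cleaves the cholesterol side chain, had 1.37, 0.942 and 1.91 CPM with DHT and 0.0918, 0.0986 and 0.0989 CPM with vehicle (log2 change 3.82, adjusted p = 1.43e-05). HSD17B6, an oxidoreductase of androgen metabolism, rose by 1.79 (adjusted p = 4.75e-05). CYB5A, the cytochrome b5 that aids CYP17A1, rose by 0.44 (adjusted p = 8.11e-06).

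Many lipid synthesis genes rose. Of 34 tested genes of fatty acid synthesis, 14 rose (41.2%, beside 13.3% of all tested genes), with a median log2 change of 0.19. None was called lower by edgeR, with 3 lower at an unadjusted p under 0.05 and 2 called lower by DESeq2. The count that rose was 8 without DHT library 1, without vehicle library 2 or without vehicle library 3. ELOVL5, which elongates polyunsaturated fatty acids, had 809, 515 and 638 CPM with DHT and 228, 231 and 242 CPM with vehicle (log2 change 1.49, SE 0.115, adjusted p = 1.18e-07), and was among the 6 largest gains in mean CPM. ELOVL7, which elongates long-chain saturated fatty acids, had 68.4, 39.2 and 50.7 CPM with DHT and 23.8, 20.8 and 21.0 CPM with vehicle (log2 change 1.27, adjusted p = 1e-05). The first committed enzyme ACACA and the synthase FASN each rose by 0.62 (adjusted p = 9.31e-05 and 0.000194). ACSL3, which activates fatty acids, rose by 0.59 (adjusted p = 0.000496) and the desaturase FADS2 by 0.56 (adjusted p = 0.00061).

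Of 30 tested genes of cholesterol synthesis and handling, 17 rose (56.7%) and 5 fell (16.7%), with a median log2 change of 0.24. Of all tested genes 13.3% rose and 8.92% fell. The count that rose was 11 without DHT library 1 or vehicle library 3, and the count that fell was 3 without DHT library 3 or vehicle library 3. FDFT1, squalene synthase, had 307, 266 and 273 CPM with DHT and 215, 212 and 212 CPM with vehicle (log2 change 0.40, SE 0.0536, adjusted p = 2.97e-05). EBP, the sterol isomerase, rose by 0.70 (adjusted p = 7.63e-06), FDPS by 0.36 (adjusted p = 2.73e-05) and the transcription factor SREBF2 by 0.34 (adjusted p = 0.00135). INSIG1, which retains the SREBP complex in the endoplasmic reticulum, rose by 0.45 (adjusted p = 0.00207), and the cholesterol exporter ABCA1 fell by 0.52 (adjusted p = 0.00146).

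The mitotic list moved most uniformly. Of 89 tested G2/M genes, 86 rose, 67 of them by at least 2-fold, with a median log2 change of 1.57, beside 13.3% of all tested genes that rose. Their summed level was 2364, 1750.4 and 2169 CPM with DHT and 1009.8, 967 and 1022 CPM with vehicle, and 87 of the 89 genes did not overlap between the groups, beside 31.7% of all tested genes. None fell by edgeR or DESeq2, or at an unadjusted p under 0.05. The 3 that did not pass were BUB3 (log2 change 0.12, adjusted p = 0.156), CKAP2 (0.14, adjusted p = 0.292) and SPC25 (0.21, adjusted p = 0.406), named after their values were seen. CKAP2 passed without DHT library 2 (adjusted p = 0.00718), and BUB3 passed with a replicate block (0.0346). MKI67, the proliferation marker Ki-67, had 72.7, 48.5 and 67.8 CPM with DHT and 12.6, 12.9 and 14.9 CPM with vehicle (log2 change 2.22, SE 0.192, adjusted p = 3.36e-07). TOP2A, which untangles chromosomes, had 55.6, 40.9 and 60.0 CPM with DHT and 14.6, 16.3 and 17.5 CPM with vehicle (log2 change 1.69, SE 0.204, adjusted p = 1.02e-05). CDK1, the mitotic kinase, had 143, 110.4 and 142 CPM with DHT and 65.0, 54.4 and 62.1 CPM with vehicle (log2 change 1.12, SE 0.118, adjusted p = 2.43e-06). In all 3 genes DHT library 2 was the lowest of the DHT libraries and still above every vehicle library. NDC80 of the kinetochore rose by 2.06 (adjusted p = 1.57e-07), the mitotic kinase PBK by 1.78 (adjusted p = 2.09e-07), the ubiquitin-conjugating enzyme UBE2C by 1.76 (adjusted p = 4.59e-06), and PLK1 by 1.49 (adjusted p = 2.48e-06). The transcription factors MYBL2 and FOXM1, which drive late cell cycle genes, rose by 2.21 (adjusted p = 2.56e-07) and 1.2 (adjusted p = 2e-05). CCNB1, the mitotic cyclin, rose by 0.70 (adjusted p = 0.000207).

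The G1/S and replication list also rose, by less. Of 68 tested genes, 61 rose (89.7%, beside 13.3% of all tested genes), 28 of them by at least 2-fold. The median log2 change was 0.83, and 1 gene fell (DUT, which is given with the NTC values below). The summed level was 3068, 2484 and 2749 CPM with DHT and 1846, 1755 and 1832 CPM with vehicle, with no overlap. RRM2, the regulated subunit of ribonucleotide reductase, had 68.7, 38.9 and 55.6 CPM with DHT and 11.9, 9.17 and 12.1 CPM with vehicle (log2 change 2.30, SE 0.174, adjusted p = 8.63e-08). MCM10, needed for origin firing, rose by 2.41 (adjusted p = 3.76e-07), DTL by 2.14 (adjusted p = 4.39e-07), the methylation maintenance factor UHRF1 by 2.08 (adjusted p = 1.32e-07), CDC6 by 2.0 (adjusted p = 1.04e-06) and GINS2 of the replicative helicase by 1.61 (adjusted p = 4.62e-08). The transcription factors of the G1/S switch moved with them: E2F1 had 25.8, 16.2 and 19.1 CPM with DHT and 6.33, 4.90 and 6.60 CPM with vehicle (log2 change 1.77, adjusted p = 3.63e-07), E2F2 rose by 1.66 (adjusted p = 1.86e-05) and the repressor E2F8 by 2.31 (adjusted p = 2.97e-05). PKMYT1, the kinase that holds CDK1 inactive, and ZNF367 were among the 12 highest ranked changes, at 2.47 (adjusted p = 3.36e-07) and 2.44 (adjusted p = 3.43e-07). The G1 cyclin CCND1 had 291, 234 and 239 CPM with DHT and 293, 243 and 257 CPM with vehicle and did not pass (log2 change -0.054, adjusted p = 0.793). CCNE1 rose by 0.56 (adjusted p = 0.0015), while CCNE2 did not pass (0.24, adjusted p = 0.106) except without DHT library 2 (adjusted p = 0.00196). In the homologous recombination and Fanconi anaemia list, 31 of 44 rose (70.5%) and 1 fell (2.27%), with a median of 0.62. BRCA2 rose by 2.03 (adjusted p = 1.73e-06), BRCA1 by 1.59 (adjusted p = 5.58e-07), the nuclease EXO1 by 2.19 (adjusted p = 8.52e-07), and the helicase BLM by 2.16 (adjusted p = 2.93e-05).

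Promoters of 3 of these genes are shown, searched for motifs known from cell cycle control: the CHR element TTTGAA and the CCAAT box, which occur in late cell cycle promoters, and the E2F site GGCGGGAA of G1/S promoters, each on both strands in the 250 bases before the RefSeq start (build GRCh38.p14). NDC80 and GINS2 were among the genes of their lists with the lowest adjusted p. ZWINT, a kinetochore gene, rose by 1.34 (adjusted p = 3.26e-07). It was chosen after its values were seen because its window holds both mitotic motifs, in a search that left out a chromosome. Capitals mark any CHR, CCAAT or E2F match.
NDC80 (chr18:2571307-2571556, plus strand): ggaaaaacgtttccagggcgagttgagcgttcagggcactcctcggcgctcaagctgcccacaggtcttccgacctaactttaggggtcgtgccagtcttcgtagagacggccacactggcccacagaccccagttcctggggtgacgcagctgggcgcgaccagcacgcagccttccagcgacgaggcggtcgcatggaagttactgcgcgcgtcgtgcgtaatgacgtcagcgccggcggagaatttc
ZWINT (chr10:56361260-56361509, minus strand): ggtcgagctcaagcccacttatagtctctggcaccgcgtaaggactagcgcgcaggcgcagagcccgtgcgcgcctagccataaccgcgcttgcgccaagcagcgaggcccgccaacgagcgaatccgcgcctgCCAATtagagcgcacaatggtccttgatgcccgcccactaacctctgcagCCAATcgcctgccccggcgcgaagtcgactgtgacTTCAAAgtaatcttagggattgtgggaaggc
GINS2 (chr16:85688955-85689204, minus strand): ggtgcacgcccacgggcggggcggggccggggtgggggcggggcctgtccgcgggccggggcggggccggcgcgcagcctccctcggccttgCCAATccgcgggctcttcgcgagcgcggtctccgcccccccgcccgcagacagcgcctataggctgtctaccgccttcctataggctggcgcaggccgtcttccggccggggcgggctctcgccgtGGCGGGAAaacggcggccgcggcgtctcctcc
ZWINT held CHR, read as TTCAAA, 31 to 26 bases before the start, and CCAAT boxes that end 112 and 62 bases before it. GINS2 held the E2F site 32 to 25 bases before the start and a CCAAT box 158 to 154 bases before it, and NDC80 held none of the 3 motifs in this window. CHR was found in 31 of the 76 matched G2/M promoters (40.8%), in 2 of the 55 matched G1/S promoters (3.64%) and in 8.5% of the promoters of all tested genes. CCAAT was found in 67.1% of G2/M, 52.7% of G1/S and 35.3% of all tested promoters. The E2F site was found in 12 of the 55 G1/S promoters (21.8%), in 6 of the 76 G2/M promoters (7.89%) and in 4.49% of all tested promoters. A match is a description of the sequence only, and a CCAAT box read on the other strand can share letters with an E2F site. RefSeq promoters were matched by symbol for 85.4% of the G2/M list, 80.9% of the G1/S list and 76.4% of all tested genes. The last share is under the 80% set as a minimum, so shares over all tested genes cover only the matched genes. By the same rule as for AGAACA, the comparison of the list shares with those over all tested genes is void. The G2/M and G1/S lists were each matched above that minimum.

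On a list of CDK inhibitors and pocket proteins, 9 of 23 tested genes rose (39.1%) and 5 fell (21.7%). Of all tested genes 13.3% rose and 8.92% fell. The cyclin-dependent kinase inhibitor p21, CDKN1A, had 331, 528 and 451 CPM with DHT and 513, 661 and 671 CPM with vehicle (log2 change -0.49, adjusted p = 0.0181), with DHT library 2 above the lowest vehicle library. That call was lost without DHT library 1 (adjusted p = 0.0738), vehicle library 2 (0.0595) or vehicle library 3 (0.0662). CDKN1B, which encodes p27, had a log2 change of -0.19 (adjusted p = 0.0194), a call lost without DHT library 2 (0.053). SKP2, which targets p27 for degradation, rose by 0.43 (adjusted p = 0.000722) and its cofactor CKS1B by 1.02 (adjusted p = 2.17e-07). Of 31 tested p53 targets, 1 rose (3.23%) and 8 fell (25.8%), with a median of -0.14. Without DHT library 1 or without vehicle library 3, 4 fell. TP53I3, an oxidoreductase induced by p53, fell by 1.13 (adjusted p = 1.02e-05), and TP53INP1 by 0.38 (adjusted p = 0.00142). Of 22 FOXO factors and targets, 7 fell (31.8%). TXNIP, the thioredoxin inhibitor, had 294, 333 and 369 CPM with DHT and 437, 494 and 470.4 CPM with vehicle (log2 change -0.49, adjusted p = 7.98e-05). FOXO3 itself fell by 0.27 (adjusted p = 0.00453), and CCNG2, an atypical cyclin of quiescent cells, by 0.31 (adjusted p = 0.0142). No FOXO target was called higher by edgeR, 1 was at an unadjusted p under 0.05 and DESeq2 called 1. Of 33 tested replication-dependent histone genes edgeR called 0, with 3 at an unadjusted p under 0.05 and 1 called by DESeq2. The libraries were made from polyadenylated RNA, so these counts cover only histone transcripts with a poly(A) tail.

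Growth and biosynthesis genes rose modestly. Of 55 tested genes of MYC and ribosome biogenesis, 39 rose (70.9%, beside 13.3% of all tested genes), with a median of 0.27. Without DHT library 1, 24 rose. None fell by edgeR or DESeq2, or at an unadjusted p under 0.05. MYC had 173, 128 and 163 CPM with DHT and 98.8, 91.6 and 105 CPM with vehicle (log2 change 0.65, SE 0.0893, adjusted p = 4.25e-05). TCOF1, a nucleolar factor of ribosomal RNA transcription, rose by 0.89 (adjusted p = 4.45e-06), the nucleolar protein gene NOP56 by 0.46 (adjusted p = 7.63e-06), and CAD, which starts pyrimidine synthesis, by 0.45 (adjusted p = 0.000858). Of 17 tested polyamine synthesis genes, 5 rose (29.4%) and 2 fell (11.8%), with a median of 0.089, beside 13.3% and 8.92% of all tested genes. The count that fell was 4 without DHT library 2 and 1 without DHT library 3 or vehicle library 1. Among those that rose, the synthases SRM and SMS had log2 changes of 0.58 (adjusted p = 0.00245) and 0.54 (adjusted p = 0.000833). Of 29 tested genes of the IGF and growth factor axis, 5 rose (17.2%) and 3 fell (10.3%), with a median of -0.0055, near the 13.3% and 8.92% of all tested genes. The insulin receptor substrate IRS1, given above, was among those that fell, and those that rose included IGF1R (0.65, adjusted p = 0.000946), EGFR (0.34, adjusted p = 0.00354), the phosphatase INPP4B (1.54, adjusted p = 2.17e-06) and the PI3-kinase regulatory subunit PIK3R1 (0.45, adjusted p = 6.94e-05). Among 77 cytosolic ribosomal protein genes 4 rose (5.19%) and 2 fell (2.6%), with a median of 0.024. These counts rested on single libraries: 1 rose and 25 fell without DHT library 2, and 11 rose and 1 fell without DHT library 1. Without DHT library 3 or vehicle library 1, 2 rose and 1 fell, without vehicle library 2 1 rose and 1 fell, and without vehicle library 3 0 rose and 1 fell. Their summed level was 74131, 95732 and 76824 CPM with DHT and 82216, 82165 and 78865 CPM with vehicle, so that only DHT library 2 lay above the vehicle libraries. The 71 respiratory chain genes went the same way, with 6 higher (8.45%) and 3 lower (4.23%) over all libraries. There were 2 higher and 16 lower without DHT library 2, and 11 higher and 1 lower without DHT library 1. There were 3 higher and 1 lower without DHT library 3, 4 higher and 1 lower without vehicle library 1, and 1 higher and 2 lower without vehicle library 3.

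Of 42 genes of the integrated stress response, 8 fell (19%, beside 8.92% of all tested genes), with a median of -0.23. None rose by edgeR or DESeq2, and 1 was higher at an unadjusted p under 0.05. The count that fell was 3 without DHT library 1, 4 without vehicle library 2 and 14 without DHT library 2. The asparaginyl-tRNA synthetase gene NARS fell by 0.31 (adjusted p = 0.000649). ATF4, the transcription factor of that response, had a log2 change of -0.27 (adjusted p = 0.0252), a call lost without DHT library 1 (0.0993), vehicle library 2 (0.0891) or vehicle library 3 (0.0573). Among 58 genes of autophagy and the lysosome, 3 rose (5.17%) and 11 fell (19%), with a median of -0.064. Without vehicle library 3, 7 fell, and without vehicle library 1, 1 rose. ATG3 fell by 0.38 (adjusted p = 0.00148) and MAP1LC3B, which encodes the autophagosome protein LC3B, by 0.30 (adjusted p = 0.00198). In the unfolded protein response list 6 of 48 rose (12.5%) and 5 fell (10.4%), with a median of 0.0034, near the 13.3% and 8.92% of all tested genes. The count that rose was 3 without DHT library 1, vehicle library 1 or vehicle library 3, and the count that fell was 3 without DHT library 1 or vehicle library 1. The chaperone HSPA5, also known as BiP, fell by 0.35 (adjusted p = 0.0002), while the signal peptidase subunit SEC11C rose by 0.87 (adjusted p = 4.62e-08) and the disulfide isomerase PDIA5 by 0.81 (adjusted p = 8.72e-06).

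Genes of secretion, surface and differentiation moved in both directions. Of 28 prostate secretory and surface genes, 11 rose (39.3%) and 2 fell (7.14%), beside 13.3% and 8.92% of all tested genes. AZGP1, a secreted zinc-binding glycoprotein of prostate fluid, had 41.0, 28.5 and 31.9 CPM with DHT and 4.87, 3.58 and 4.19 CPM with vehicle (log2 change 3.0, SE 0.194, adjusted p = 1.97e-08). Other genes among the 12 highest log2 changes were CTNNA2, which encodes alpha-N-catenin (7.42, 9.31 and 12.3 CPM with DHT and 0.490, 0.789 and 1.25 CPM with vehicle, log2 change 3.53, adjusted p = 1.73e-06), and MYBPC1, a myosin-binding protein gene (2.45, adjusted p = 1.13e-05). TUBA3D, an alpha-tubulin gene that shares reads with near-identical copies, had a log2 change of 3.49 (adjusted p = 9.02e-07). RAB3B, a regulator of vesicle exocytosis, rose by 0.80 (adjusted p = 3.52e-05). Of 36 glycosylation genes, 10 rose (27.8%) and 8 fell (22.2%). The count that rose was 3 without DHT library 1, 4 without vehicle library 2 or 3, and 6 without DHT library 3 or vehicle library 1, and the count that fell was 5 without vehicle library 1. ST6GALNAC1, which makes the sialyl-Tn antigen, had the highest log2 change of that list, with 21.3, 16.1 and 18.7 CPM with DHT and 1.93, 1.28 and 1.78 CPM with vehicle (log2 change 3.48, SE 0.173, adjusted p = 6.54e-10). Of 29 calcium signalling and ion channel genes, 8 rose (27.6%) and 4 fell (13.8%), and 5 rose without DHT library 1. KCNMA1, the large-conductance potassium channel, had 121, 113 and 131 CPM with DHT and 30.2, 43.1 and 50.9 CPM with vehicle (log2 change 1.56, adjusted p = 7.94e-06). Among epithelial genes the keratin KRT19 rose by 1.97 (adjusted p = 1.93e-06), with 5 of 35 higher (14.3%, beside 13.3% of all tested genes) and 1 lower, or 4 lower without DHT library 2. Among mesenchymal genes (3 of 16 rose, 18.8%, and 2 fell, 12.5%) fibronectin FN1 rose by 0.41 (adjusted p = 0.000224). Of the neuroendocrine genes (3 of 13 rose, 23.1%, and 2 fell, 15.4%) UCHL1 rose by 1.91 (adjusted p = 1.74e-05) and ENO2 fell by 0.64 (adjusted p = 0.000509). CTNNB1, which encodes beta-catenin, fell to 382, 382 and 386 CPM with DHT, against 507, 473 and 509.6 CPM with vehicle (log2 change -0.37, adjusted p = 7.63e-06).

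**Figure D3:**
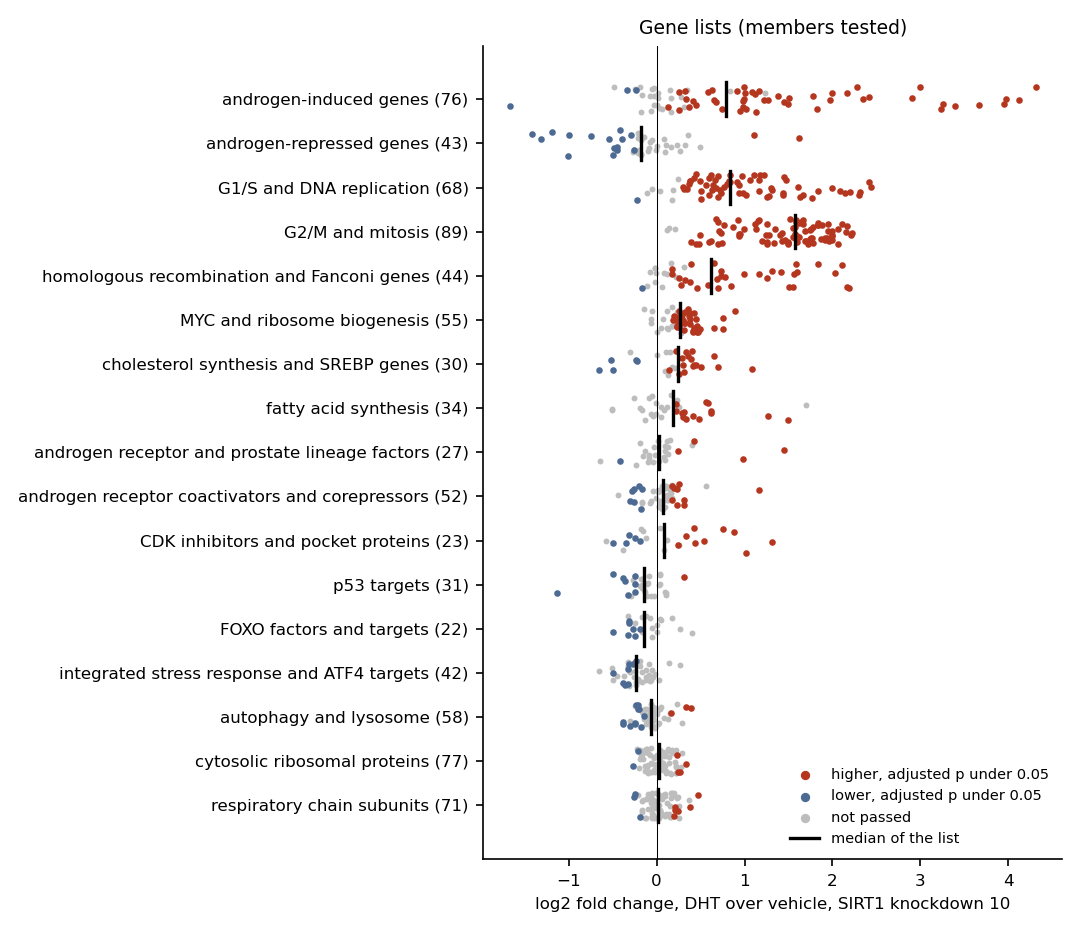
Log2 change with DHT (x axis) of every tested member of 17 gene lists in SIRT1 knockdown 10 cells, each point 1 gene and each bar the list's median. The G2/M list sits furthest right, at a median of 1.57, ahead of G1/S at 0.83 and androgen-induced genes at 0.78, while the androgen-repressed and integrated stress response lists sit left of 0 at -0.18 and -0.23.

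Enzymes of NAD use were examined because SIRT1 is one. Of 21 sirtuin and NAD genes, 3 rose (14.3%, beside 13.3% of all tested genes) and 1 fell, the last being SIRT1. NNMT, which methylates nicotinamide, rose by 2.35 (0.685, 0.507 and 0.816 CPM with DHT and 0.153, 0.0986 and 0.132 CPM with vehicle, adjusted p = 0.000298). The poly-ADP-ribose polymerases PARP1 and PARP2 rose by 0.40 (adjusted p = 0.000512) and 0.55 (adjusted p = 1.39e-05).

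The same DHT comparison in NTC cells, which shares no library with that in knockdown cells, called 4352 of 14558 genes (29.9%), 2529 higher (17.4%) and 1823 lower (12.5%). Across the 14558 genes the log2 changes of knockdown and NTC cells had a Pearson r of 0.68, given as a description since genes are not independent replicates. Of the genes that rose in knockdown cells, 1472 also rose in NTC cells (76% of the knockdown list and 58.2% of the NTC list). Of those that fell, 830 fell in both (63.9% and 45.5%), and 6 genes were called in opposite directions. The androgen-induced list had a median log2 change of 0.78 in knockdown cells and 0.76 in NTC cells, and summed to means of 11336 CPM with DHT and 7416 CPM with vehicle in NTC cells. The G2/M list had a median of 1.57 in knockdown cells and 1.61 in NTC cells. The G1/S list had a median of 0.83 in knockdown cells and 1.26 in NTC cells, and 58 of its 68 genes had the smaller value in knockdown cells, beside 53 of 89 G2/M genes and 7253 of all 14558 genes. The recombination and Fanconi list had 0.62 in knockdown cells and 0.93 in NTC cells, and cholesterol genes 0.24 and 0.42. Levels of cell cycle genes were lower in knockdown cells in both treatments: the G2/M list summed to 1750.4 to 2364 CPM with DHT in knockdown cells, against a mean of 5346 CPM with DHT in NTC cells, and to 967 to 1022 CPM with vehicle in knockdown cells, against a mean of 1977 CPM with vehicle in NTC cells.

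**Figure D4:**
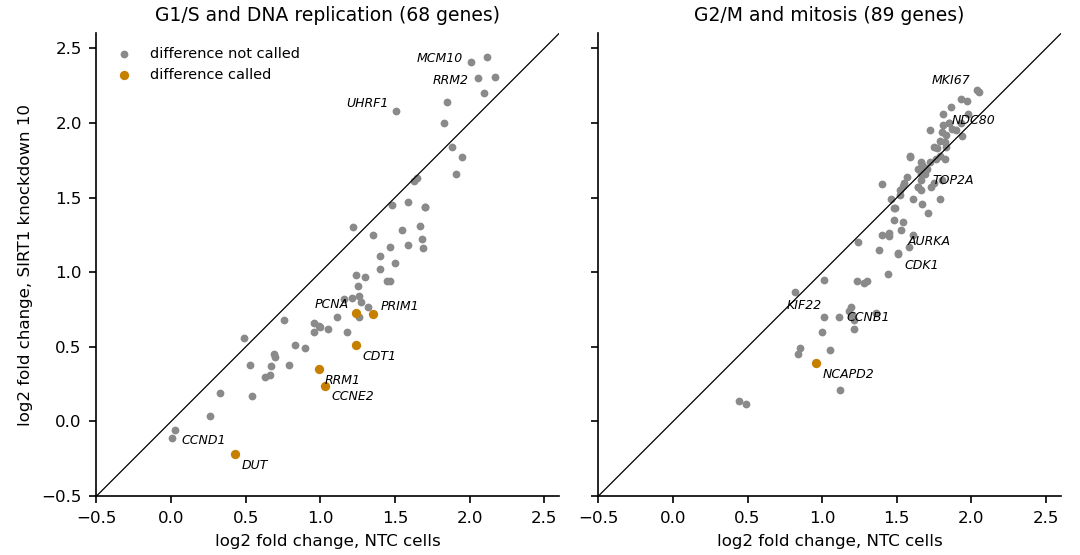
Log2 change with DHT in SIRT1 knockdown 10 cells (y axis) against NTC cells (x axis) for 68 G1/S and 89 G2/M genes, each point 1 gene, with the line of equal change. G1/S genes lie mostly below the line, 58 of 68, and orange marks the genes whose difference between the lines passed the test.

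The difference between the DHT responses was tested as an interaction, knockdown minus NTC. It was called for 29 genes (0.199% of those tested), 6 higher in knockdown cells (0.0412%) and 23 lower (0.158%). At an unadjusted p under 0.05 there were 1598, DESeq2 called 157, and a replicate block called 427, 190 higher and 237 lower. Same-numbered NTC libraries deviated together and those of knockdown cells did not in every pair, as given with the processing alternatives. The count ranged from 5 without NTC DHT library 3 to 90 without knockdown DHT library 2, and was 70 without knockdown DHT library 1. The lowest adjusted p belonged to KLK4 (0.00209) and NCAPD3 (0.00365). Both are on the androgen-induced list, which had 1 difference called higher (KLK4) and 1 called lower (NCAPD3). KLK4 was the only called gene whose difference exceeded 2-fold (0.00687% of those tested), and it passed under every alternative that was run. Its log2 change was 3.23 in knockdown cells and 1.98 in NTC cells, where it averaged 103 CPM with DHT and 26.0 CPM with vehicle, a difference of 1.25 (SE 0.148). The neighbours KLK3 and KLK2 had larger log2 changes in knockdown cells too, 3.97 and 4.31 against 3.23 and 3.72 in NTC cells, and neither difference passed (adjusted p = 0.18 and 0.499).

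Among the 23 lower differences were 6 of the 68 G1/S genes and 1 of the 89 G2/M genes. NCAPD3, a condensin II subunit and a member of the androgen-induced list, rose by 0.42 in knockdown cells (adjusted p = 4.73e-05). In NTC cells it rose by 1.03 (difference -0.61, SE 0.0816). DUT, the dUTPase that keeps uracil out of DNA, went opposite ways: it had 40.5, 45.2 and 44.3 CPM with DHT and 52.7, 49.6 and 48.7 CPM with vehicle in knockdown cells, and averaged 66.7 CPM with DHT and 49.3 CPM with vehicle in NTC cells. Its log2 change was -0.22 in knockdown cells (adjusted p = 0.0281) and 0.43 in NTC cells (difference -0.65, SE 0.0948, adjusted p = 0.00825). The fall of DUT in knockdown cells lost its call without DHT library 1 (adjusted p = 0.09) or vehicle library 1 (0.084). RRM1, the large subunit of ribonucleotide reductase, had a difference of -0.65 (adjusted p = 0.0141), the primase gene PRIM1 one of -0.63 (adjusted p = 0.0235), the licensing factor CDT1 -0.73 (adjusted p = 0.0293), the sliding clamp PCNA -0.51 (adjusted p = 0.0394) and CCNE2 -0.80 (adjusted p = 0.0265). DUT, RRM1, PRIM1, CDT1, PCNA and CCNE2 are those 6 members of the G1/S list. The G2/M member was NCAPD2, a condensin I subunit named after its values were seen (-0.56, adjusted p = 0.0235). The kinetochore gene DSN1 (-0.66, adjusted p = 0.0235), the desaturase gene FADS1 (-0.57, adjusted p = 0.0265) and C20orf72, which encodes the mitochondrial nuclease MGME1 (-0.62, adjusted p = 0.0106), also passed, as did the transcription factor gene PAX9 (-0.66, adjusted p = 0.0428). The other named differences were higher in knockdown cells: LGALS8, a galectin (0.70, adjusted p = 0.0394), C1QTNF6 (0.65, adjusted p = 0.0334), the interleukin-1 receptor antagonist IL1RN (0.62, adjusted p = 0.0235), POLR2J3 (0.45, adjusted p = 0.0334) and PHF23 (0.34, adjusted p = 0.0396). LGALS8 rose in knockdown cells, with 91.0, 97.4 and 101 CPM with DHT and 65.5, 70.9 and 68.5 CPM with vehicle, and did not pass in NTC cells (log2 change -0.20, adjusted p = 0.125). C1QTNF6 had log2 changes of -0.24 in knockdown cells and -0.88 in NTC cells, so its difference was a smaller fall. POLR2J3 had 0.28 in knockdown cells and -0.17 in NTC cells. PHF23 had 0.096 in knockdown cells, which did not pass (adjusted p = 0.152), and -0.24 in NTC cells. IL1RN fell in NTC cells by 0.80 (adjusted p = 4.88e-07) and did not pass in knockdown cells (log2 change -0.18, adjusted p = 0.0889). It passed there as lower without vehicle library 2 (0.0269), with a replicate block (0.0373), with upper-quartile factors (0.0392) and with the 1 CPM filter (0.0499). NCAPD3, DUT and C20orf72 lost the call of their difference only with limma on TPM (adjusted p = 0.0723, 0.055 and 0.069). The calls of the other 14 named differences rested on single libraries: among the 18 named, 14 were lost without NTC DHT library 3, 13 without NTC vehicle library 1, 12 each without NTC DHT library 1, NTC vehicle library 2 or knockdown vehicle library 3, and 11 without NTC vehicle library 3. Without knockdown DHT library 3 or vehicle library 1, 8 were lost, without knockdown vehicle library 2 or NTC DHT library 2, 6, and without knockdown DHT library 1, 3. Their adjusted p then lay between 0.0517 and 0.151. Without knockdown DHT library 2, 0 were lost.

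**Figure D5:**
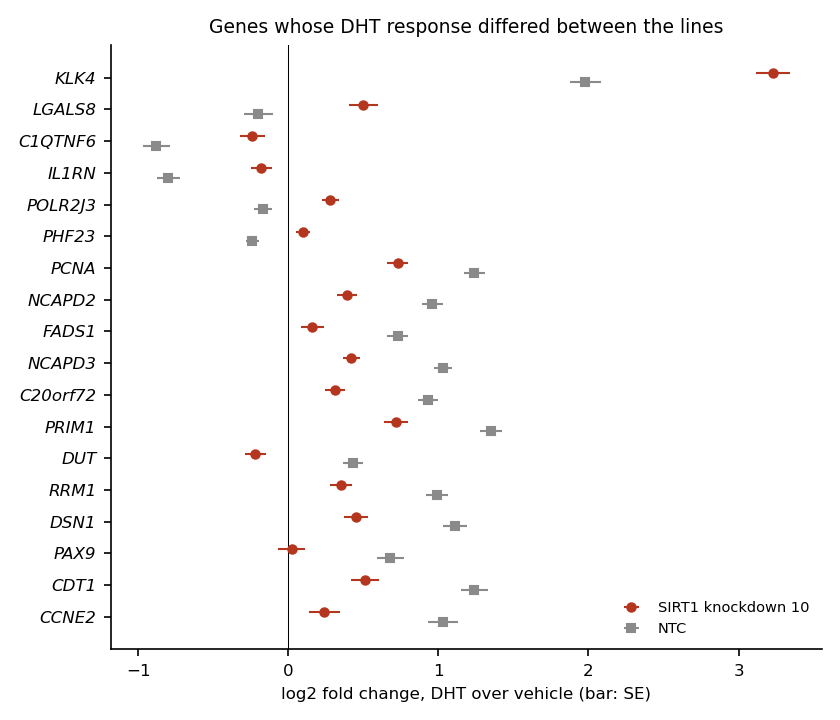
Log2 change with DHT (x axis, with SE) of the 18 named genes whose response differed between SIRT1 knockdown 10 and NTC cells, knockdown drawn above NTC for each gene. KLK4 is furthest right, at 3.23 in knockdown and 1.98 in NTC cells, and DUT, LGALS8, POLR2J3 and PHF23 lie on opposite sides of 0 in the 2 lines. Of these, LGALS8 did not pass in NTC cells and PHF23 did not pass in knockdown cells.

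The libraries with DHT and enzalutamide are given side by side with the others and without a test, because they would be set against the same DHT libraries. In knockdown cells KLK3 averaged 12.7 CPM with DHT and enzalutamide, KLK2 4.96 CPM and KLK4 29.4 CPM, each above its highest vehicle library. SLC45A3 averaged 37.3 CPM and TMPRSS2 39.4 CPM, also above their vehicle libraries, while FKBP5, at 33.8 CPM, lay inside their range. Of the genes that fell with DHT, DDC averaged 57.0 CPM and CAMK2N1 231 CPM, both inside the range of the vehicle libraries. SI, at 55.4 CPM, lay below every vehicle library, as did PLA2G2A (26.7 CPM), SELENBP1 (1075 CPM) and FUT8 (36.4 CPM). Of the 49 androgen-induced genes that rose, the mean with DHT and enzalutamide was above the vehicle range for 17, inside it for 28 and below it for 4. Of the 15 androgen-repressed genes that fell, it was above for 1, inside for 9 and below for 5. Both sets were chosen by their difference from these same vehicle libraries, and no such split was made over all tested genes. The counts therefore only describe where the means lay. The G2/M list summed to a mean of 873 CPM with DHT and enzalutamide, below each vehicle library, and the androgen-induced list to 7298 CPM, inside their range.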

How the data were processed

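Polyadenylated RNA of LNCaP cells was sequenced from stranded libraries made from about 500 ng of RNA, per the labels. The authors deposited, for each gene symbol, an RSEM expected count (estimated reads, not normalized), a TPM and an FPKM, which was not used. The submitters' processing notes name CASAVA 1.8.2, RSEM 1.2.31 and hg19; the aligner is not given in the sources used here. Reads shared between near-identical genes were divided by RSEM, so such genes are uncertain. The files hold no mitochondrially encoded genes.

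Expected counts were rounded to whole numbers. Low counts were removed with filterByExpr, which left 14558 genes and 99.97% of counts. One edgeR 4.0.16 quasi-likelihood model on R 4.3.3 held all 18 stripped-serum libraries in 6 groups, with TMM factors of 0.969 to 1.014, a common biological coefficient of variation of 7.79% and 12 residual degrees of freedom. It gave DHT against vehicle in knockdown 10 and in NTC cells, and their difference. Tests were two-sided, with Benjamini-Hochberg adjustment over all tested genes and a threshold of 0.05. The script recovered known changes in simulated data. Total counts were 25.2 to 35.1 M per library, which sets the counting error; floors cover counting error only. The labels place all libraries in one lane and give no other batch. No library pair agreed within sampling noise (chi-square per gene at least 3.79).

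Alternatives were a fit of only the libraries compared, a replicate block, RLE and upper-quartile factors, DESeq2 1.42.0, limma 3.58.1 on log2(TPM + 1) for genes with a mean of at least 0.5 TPM (deposited TPM values), no filter, a filter of 1 CPM in 3 libraries, and leaving out each library in turn. Named genes come from a rule: SIRT1, KLK3, KLK2, TMPRSS2 and FKBP5, the 12 highest and 12 lowest log2 changes of called genes whose groups did not overlap and whose mean log2 CPM was 1 or more, the 6 largest gains and losses of mean CPM, the key genes and up to 4 genes of lowest adjusted p of each of 39 gene lists (1485 symbols, 4 not found), and the 8 highest and 8 lowest called differences. Genes outside it are said to be chosen after their values were seen. Not every gene the rule selects is printed: the selection among them was made with their values known, and some genes are not reported here. Members and lists were chosen with earlier results of these data known. Promoter sequences are from RefSeq, build GRCh38.p14.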

Additional observations from a re-analysis of the deposited data

Results flagged for a closer look

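The genes below are given again because their DHT response differed between SIRT1 knockdown 10 and NTC cells by the interaction test, as a log2 difference, knockdown minus NTC. The difference was positive for KLK4 (1.25), LGALS8 (0.70), C1QTNF6 (0.65), IL1RN (0.62), POLR2J3 (0.45) and PHF23 (0.34). That of C1QTNF6 was a smaller fall in knockdown than in NTC cells. Negative differences were those of CCNE2 (-0.80), CDT1 (-0.73), DSN1 (-0.66), PAX9 (-0.66), DUT (-0.65), RRM1 (-0.65), PRIM1 (-0.63), C20orf72 (-0.62), NCAPD3 (-0.61), FADS1 (-0.57), NCAPD2 (-0.56) and PCNA (-0.51). KLK4, NCAPD3, DUT and C20orf72 kept their calls without each of the 12 libraries in turn. RRM1 lost its call in 2 of these 12 fits, with adjusted p of 0.0525 and 0.0534, and PHF23, PAX9 and POLR2J3 in 11 of them. What sets these genes apart was not tested.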

How the results depend on the processing

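The number of genes called for DHT in knockdown cells was 3236, and 1649 when only the 6 libraries compared were fitted, 962 of them higher and 687 lower. With limma on TPM 1125 genes were higher and 185 were called and at least 2-fold changed, beside 364. Leaving out 1 library gave 2268 to 3744 called genes, 1228 to 2084 higher, 1005 to 1660 lower and 315 to 443 at least 2-fold changed. In NTC cells it gave 3088 to 3974 called, 1868 to 2339 higher and 1220 to 1635 lower, and limma called 1110 lower. Called differences between the lines numbered 7 in the fit of only the libraries compared (2 higher, 5 lower), 157 with DESeq2 (49 higher, 108 lower) and 3 with limma (1 higher, 2 lower). Upper-quartile factors gave 10 higher, and leaving out 1 library 5 to 90, with 1 to 25 higher and 4 to 65 lower. Same-numbered DHT and vehicle libraries of knockdown cells correlated at 0.345, 0.228 and 0.047 in their deviations from the group means, and those of NTC cells at 0.341, 0.196 and 0.105. In knockdown cells 1 pair was not above 0.1, and DHT library 3 correlated best with vehicle library 2 (0.12), so the numbers were not taken as pairs there, while each NTC library correlated best with its own number. The libraries numbered 1 of all 6 groups lay at 15.4 to 20 on the third principal component and the others below 0, a hint from the data, not the design. A replicate block called 4674 genes in knockdown cells, 2039 of them lower, 5859 in NTC cells and 427 differences, 190 higher and 237 lower. For the named genes, 2586 single-gene results under an alternative kept direction and side of the threshold, 72 lost the call, 9 gained it and 15 changed direction, all 15 of genes that were not called. PER1 had -0.011 in the fit of only the libraries compared, -0.0012 with RLE factors, -0.021 with upper-quartile factors, -0.013 with the 1 CPM filter, -0.0016 with DESeq2 and -0.011 with limma. When 1 library was left out PER1 ranged between -0.053 and 0.055, CCND1 between -0.18 and 0.017, NDRG1 between -0.0013 and 0.25, SGK1 between -0.23 and 0.041 and TSC22D3 between -0.13 and 0.083. The calls of SIRT1, LIFR, CDKN1A, CDKN1B, ATF4, RPL41, RPS24, RPL13A, FOLH1, DUT, CD68, VWF and COL3A1 were lost in the fit of only the libraries compared (adjusted p between 0.056 for CDKN1B and 0.195 for RPL41), and those of LIFR, UGT2B15, H2AFJ, FAM65B, CDKN1B, DUT and VWF with limma (between 0.0503 for UGT2B15 and 0.617 for FAM65B). For the named differences 222 kept and 138 lost the call, and the cause was not tested. Genes with few counts, such as H2AFJ and FAM65B, are limited by depth.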

Other observations

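Of 56 interferon-stimulated genes, 5 rose (8.93%) and 6 fell (10.7%) with DHT in knockdown cells, beside 13.3% and 8.92% of all tested genes. The count that fell was 2 without DHT library 1 and 3 without any 1 vehicle library. The antiviral sensor OAS3 had 28.0, 26.2 and 28.0 CPM with DHT and 10.7, 11.2 and 12.4 CPM with vehicle (log2 change 1.27, adjusted p = 3.42e-07, edgeR), while HLA-B, a class I antigen-presenting gene, fell by 0.41 (adjusted p = 0.00596). Of 37 glycolysis and hypoxia genes 5 rose (13.5%) and 3 fell (8.11%), near the shares of all tested genes. The count that rose was 2 without DHT library 1 or vehicle library 2 and 3 without vehicle library 1 or 3, and the count that fell was 6 without DHT library 2. Hexokinase HK2 rose by 0.77 (adjusted p = 0.00155). The epithelial calcium channel gene TRPV6 rose by 0.44 (adjusted p = 0.00271).

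Ribosomal protein genes were called in both directions. RPL41 had 2147, 3109 and 2357 CPM with DHT and 2023, 2182 and 1914 CPM with vehicle (log2 change 0.32, adjusted p = 0.0353), a call lost without DHT library 2 (0.229), vehicle library 1 (0.0937) or vehicle library 3 (0.17). RPS24 had 1477, 1826 and 1659 CPM with DHT and 1306, 1411 and 1195 CPM with vehicle (log2 change 0.34, adjusted p = 0.00552), a call lost without vehicle library 3 (0.0559), and RPL13A fell by 0.21 (adjusted p = 0.0131). In the fit of only the libraries compared these 3 calls were lost (adjusted p = 0.195 for RPL41, 0.074 for RPS24 and 0.1 for RPL13A).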
